A study of Mus musculus with 5 samples.

Results

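The 10 genes described here were listed as markers of monocytes and dendritic cells: Csf1r, Irf8, Ly86, Ccr2, Cx3cr1, Lyz2, Ms4a6c, Cd14, Siglech and Flt1. Of these, Flt1 is also found on endothelium. They were chosen by name, with earlier results of these data known, and all 10 had a row among the 39056 genes of the count table. Counts came from LSK cells, the lineage-negative, Sca-1-positive, Kit-positive fraction of bone marrow that holds stem cells and multipotent progenitors, sorted from C57BL/6 mice at postnatal day 15. There were 2 wild-type (WT) libraries and 3 libraries from mice labelled as Gabbr1 null mutants, each from about 12000 cells. Gabbr1 encodes a subunit of the receptor for the neurotransmitter GABA, and the comparison asks what its loss changes in these progenitors. The labels state neither the deleted stretch of Gabbr1 nor the sex, litter or number of animals behind each library, so that p-values rest on the variation among libraries, which may be technical.

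Monocytes and dendritic cells arise in the marrow from progenitors that descend from LSK cells. The transcription factor Irf8 directs progenitors towards the monocyte and dendritic fates and away from the neutrophil fate, and it is also active in the B lineage. Csf1r is the growth factor receptor that sustains monocytes and macrophages, Ccr2 and Cx3cr1 are chemokine receptors that guide their traffic, and Siglech marks plasmacytoid dendritic cells, the interferon-producing class. Progenitors upstream of these fates can carry low levels of such transcripts, which is known as lineage priming. In bulk libraries, more cells of a type and more RNA per cell cannot be told apart.

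Total counts were between 6972753 and 8150774 per library. Kit, the receptor that defines the gate, was between 864 and 1049 CPM (TMM-normalised counts scaled to library size) in the 5 libraries. Gabbr1 was 49.5 and 57.4 CPM in the WT libraries and 38.5, 34.8 and 33.0 CPM in null libraries 1, 2 and 3, and these counts cover the whole gene. Null library 1 was the only one with Xist above 21 counts (22532 counts) and with 0 counts summed over 4 Y-linked genes. It also had the highest sum over 10 genes of mature neutrophils, 2300 CPM, where the other null libraries had 611 and 139 CPM and the WT libraries 151 and 111 CPM. The 12 genes of the B lineage list all rose, and summed to 197 and 82.5 CPM in the WT libraries and to 1122, 632 and 1061 CPM in null. Of 7 tested genes of marrow stroma, 5 rose and none fell, and the 9 listed summed to 54.8 and 81.2 CPM for WT and to 208, 219 and 113 CPM for null.

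In null libraries, 3 of the 9 tested genes were higher: Irf8 by 2.92-fold, Ccr2 by 6.95-fold and Flt1 by 8.99-fold. Csf1r, Cx3cr1, Lyz2, Ms4a6c, Siglech and Ly86 did not pass, and Cd14 was too low to be tested. A gene passed at an adjusted p under 0.05 over all genes tested in edgeR, the source of each p below unless another tool is named, and values of null libraries are given in the order 1, 2, 3. Across the table, 2.15% of 13467 tested genes were called higher. No gene of the 10 was called lower, where 0.334% of tested genes were. DESeq2 and limma-voom called none of them lower either (0.379% and 0.26% of genes), and none had an unadjusted p under 0.05 in that direction, where 4.84% of tested genes did. Ly86 and Ms4a6c brought the number that were higher by unadjusted p to 5 of the 9, against 7.99% of tested genes. DESeq2 called 4 of the 9 higher, Ly86 with the first 3, where it called 2.49% of genes. In limma-voom the calls were Irf8 and Flt1, where 1.62% of genes were called. The median log2 fold change of the 9 genes was 1.54, against -0.004 for all tested genes, and 0.42 without null library 1, against -0.003. These medians and the shares called describe only genes that passed the filter on low counts. Ly86, Ccr2, Flt1 and Siglech passed it only with the help of null libraries. Because the set was chosen with earlier results known, its comparison with all tested genes is not independent of the values.

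The number of calls fell to 1 without WT library 1 (Flt1, with 0.721% of genes called higher) and to 0 without WT library 2 in edgeR (0.227% called), where 4 had an unadjusted p under 0.05. It was 3 without null library 1 (1.88% of genes called higher, 0.386% lower), and 4 without null library 2 or null library 3 (2.38% and 2.39%), with Ly86 added. RLE or upper quartile factors kept the 3 calls (2.12% of genes with either). With no filter on low counts 5 were called (2.53% of genes), and with a filter of 1 CPM in every library only Irf8 was, among the 5 genes it kept (1.4%). In none of these fits was a gene of the set called lower, where the share of all genes lay between 0 and 0.652%.

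**Figure D1:**
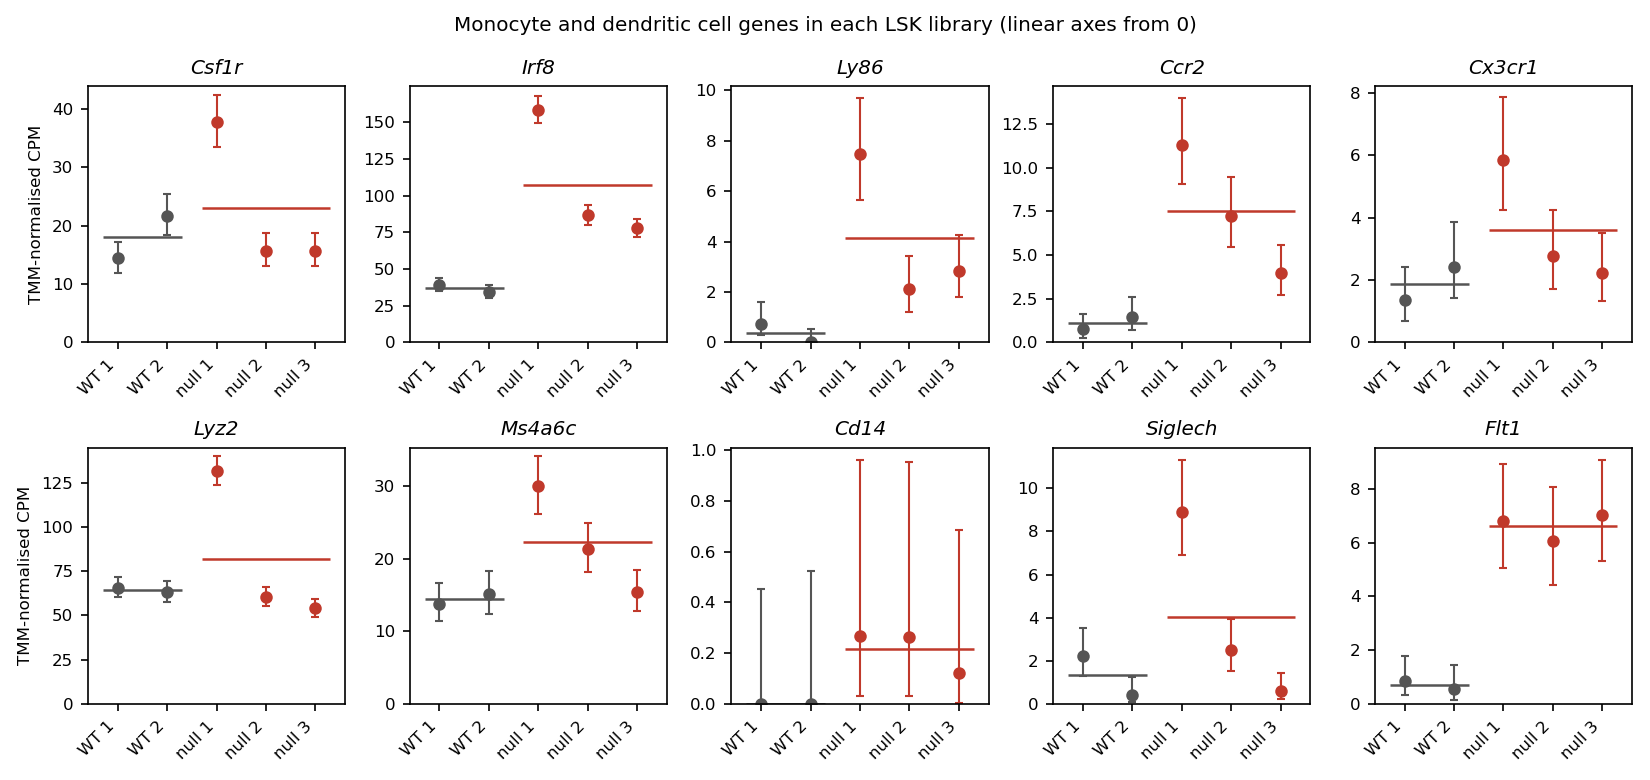
Level of each gene by library in TMM-normalised CPM (vertical axes, linear from 0); grey points are the 2 WT and red points the 3 null libraries, bars are exact 95% Poisson intervals of the count, and horizontal lines are group means. Null library 1 is the highest point in every panel but Flt1, whose 3 null libraries lie between 6.07 and 7.03 CPM.

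Irf8, the fate regulator of the set, lies on chromosome 8 (120736358 to 120756694, mm10). It was 39.1 and 34.5 CPM in the WT libraries and 159, 86.6 and 77.7 CPM in null libraries 1, 2 and 3. All null libraries lay above both WT libraries, and null library 1 stood well above the others. Group means were 36.8 ± 3.31 for WT and 108 ± 44.4 for null (CPM with SD over n = 2 and n = 3), and log2 fold change was 1.55 ± 0.26 (± standard error; adjusted p = 0.00728). Without null library 1 the change was 1.16 and still passed (adjusted p = 0.000111). The Irf8 call did not hold without WT library 1 or WT library 2 (adjusted p = 0.115 and 0.304), and over 11 alternatives the adjusted p ranged from 6.57e-27, with no filter on low counts, to 0.304. The B lineage sums of the same libraries are given above, and their part in the Irf8 difference was not tested.

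The 250 bases before the first of 2 RefSeq start sites of Irf8 (GRCm38.p6, chr8:120736108-120736357, plus strand) are shown because the gene was called and its proximal sequence carries a repeated motif. Capitals mark the 2 matches to TTCNNNGAA, the palindromic element bound by STAT factors, which begin at positions -171 and -153 counted from that start site.
Irf8: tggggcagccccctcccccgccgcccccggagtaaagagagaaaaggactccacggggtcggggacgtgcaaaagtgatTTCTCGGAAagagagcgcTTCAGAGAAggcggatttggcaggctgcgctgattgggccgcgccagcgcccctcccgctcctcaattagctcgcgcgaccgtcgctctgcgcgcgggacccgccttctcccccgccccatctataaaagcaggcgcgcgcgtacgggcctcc
This element occurred in the same window of 7.18% of 27025 promoters in the RefSeq table, which held 8 of the 10 genes. Each gene of the table was counted by its first start site, and among those 8 it was also found before Siglech. The window of the other Irf8 start site (chr8:120738389-120738638) held none of the motifs searched. The element of IRF factors, GAAA repeated after a gap of 2 bases and searched on both strands, was in none of the 8 windows and in 3.04% of all. A match is only a run of letters, and these data hold no measure of binding.

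Of 14 tested transcription factors of the monocyte, dendritic and granulocyte fates around Irf8, 3 rose and none fell (edgeR). Irf4, the closest relative of Irf8, was 7.38 and 11 CPM in the WT libraries and 35.3, 23.9 and 27.2 CPM in the null ones (log2 fold change 1.66, standard error 0.23; adjusted p = 0.00226). Its null libraries followed the order of the B lineage sums given above, lowest in library 2, and not the order of Irf8. The part of B lineage transcripts in the Irf4 difference was not tested. Id2, which restrains E proteins and is needed for conventional dendritic cells, rose by 1.5 ± 0.34, and Zeb2, a repressor used by monocytes and plasmacytoid cells, by 0.56 ± 0.11 on the log2 scale (± standard error; adjusted p = 0.0378 and 0.0148). None of the 3 held when either WT library was left out, and Id2 did not hold in limma-voom either. Spi1, which encodes PU.1, the partner factor of Irf8, was 83.9 and 106 CPM in the WT libraries and 93.8, 90.7 and 85.3 CPM in the null ones, with overlapping groups and a log2 fold change of -0.08 ± 0.12 (± standard error; adjusted p = 0.867). Batf3, a factor of cross-presenting dendritic cells, had at most 4 counts in any library and was not tested. The median log2 fold change of the 14 was 0.38.

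Csf1r, on chromosome 18, the receptor for the macrophage growth factors Csf1 and Il34, did not pass. It was 14.4 and 21.6 CPM in the WT libraries and 37.7, 15.7 and 15.7 CPM in the null ones. The groups overlapped: null libraries 2 and 3 lay between the WT libraries, and null library 1 was 2.40 times the mean of the other null libraries. The log2 fold change was 0.36 ± 0.35 with all libraries (± standard error; adjusted p = 0.752) and -0.19 ± 0.23 without null library 1 (± standard error; adjusted p = 0.872, the range over 11 alternatives being 0.588 to 0.975). Exons of Hmgxb3 on the opposite strand cover 873 of the 5774 exonic bases of Csf1r, and the strand setting of the counting is not given. Hmgxb3 itself was 60.6 and 82.0 CPM in the WT libraries and 61.2, 63.1 and 64.7 CPM in the null ones, without the peak of null library 1.

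The 14 tested genes of Csf1r signalling and its sister receptors had a median log2 fold change of 0.13. The shared receptor chain Csf2rb and the granulocyte receptor Csf3r had log2 fold changes of -0.07 ± 0.14 and -0.35 ± 0.12 (± standard error), short of the threshold (adjusted p = 0.906 and 0.205). The ligand gene Il34 had at most 3 counts in any library.

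Ccr2, the receptor for the chemokine Ccl2 that releases monocytes from marrow, lies on chromosome 9 (124101950 to 124113557, mm10). It had 6 and 10 counts in WT and 85, 55 and 32 counts in null, which is 0.738 and 1.42 CPM against 11.3, 7.26 and 3.95 CPM. Every null library was above both WT libraries, and the null libraries spread widely among themselves. The log2 fold change was 2.80 ± 0.53 (± standard error; adjusted p = 0.0147), and 2.38 without null library 1 (adjusted p = 0.0123). The call was lost in limma-voom (adjusted p = 0.0993) and without WT library 1 or WT library 2 (adjusted p = 0.156 and 0.220). The alternatives that tested Ccr2 gave adjusted p from 1.74e-09, with no filter, to 0.220. Of the chemokine genes listed with it, Ccl7, Ccl8 and Ccl12 had 0 counts in every library, and Ccl2 had at most 1 count.

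Cx3cr1, the fractalkine receptor of patrolling monocytes and macrophages (chromosome 9, 119901616 to 120069879), was low throughout. It was 1.35 and 2.42 CPM in the WT libraries and 5.86, 2.77 and 2.22 CPM in the null ones. Null library 3 fell below WT library 2, so the groups overlapped. The log2 fold change of 0.94 ± 0.52 did not pass (± standard error; adjusted p = 0.499), and it was 0.42 without null library 1.

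Flt1, the VEGF receptor found on endothelium and on some monocytes, lies on chromosome 5 (147561604 to 147726011, mm10) and rose. It had 7 and 4 counts in WT and 51, 46 and 57 in null, which is 0.862 and 0.570 CPM against 6.80, 6.07 and 7.03 CPM. The 3 null libraries lay close together and far above WT. Group means were 0.716 ± 0.206 for WT and 6.63 ± 0.500 for null (CPM with SD over n = 2 and n = 3), and log2 fold change was 3.17 ± 0.41 (± standard error; adjusted p = 0.00145). It was 3.15 without null library 1 and passed (adjusted p = 0.000551). The call was lost only without WT library 2 among the 10 alternatives that tested it (adjusted p = 0.0764, range 6.77e-10 to 0.0764).

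The 250 bases before the RefSeq start site of Flt1 (GRCm38.p6, chr5:147726012-147726261, minus strand) are shown beside those of Irf8 because the libraries of these 2 called genes followed different patterns. Capitals mark GAGGAAG, a core of PU.1 and other Ets factors searched on both strands, which begins at position -130 from the start site.
Flt1: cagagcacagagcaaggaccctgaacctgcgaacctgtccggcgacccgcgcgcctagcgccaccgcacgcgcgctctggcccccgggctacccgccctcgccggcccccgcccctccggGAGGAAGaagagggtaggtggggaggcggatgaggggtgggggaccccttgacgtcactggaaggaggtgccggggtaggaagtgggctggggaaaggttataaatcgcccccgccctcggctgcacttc
Flt1 was the only one of the 8 genes in the RefSeq table with this element in the window, and 10.4% of all promoters held it. No TTCNNNGAA was found there.

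The sister receptors and co-receptors of Flt1 rose with it. Of 9 tested partners of Ccr2, Cx3cr1 and Flt1, 4 rose and none fell, all of them VEGF or semaphorin receptors. Kdr, the main signalling VEGF receptor of endothelium, was 0.615 and 1.99 CPM in the WT libraries and 11.2, 11.9 and 15.9 CPM in the null ones (log2 fold change 3.34, standard error 0.40; adjusted p = 0.000968). Flt4, the lymphatic and sinusoidal VEGF receptor, rose by 2.85 ± 0.29, and the co-receptors Nrp1 and Nrp2 by 2.53 ± 0.49 and 2.73 ± 0.54 on the log2 scale (± standard error; adjusted p = 0.000343, 0.0160 and 0.0184). The calls of Nrp1 and Nrp2 were lost when either WT library was left out, and that of Nrp2 also in limma-voom. The ligand genes Vegfa and Vegfb had log2 fold changes of -0.19 ± 0.15 and -0.30 ± 0.18 (± standard error), short of the threshold (adjusted p = 0.687 and 0.530). Cdh5, the junction protein that defines endothelium, was 21.3, 17.2 and 20.2 CPM in the null libraries and 0.615 and 1.71 CPM in WT. Of the 14 endothelial genes listed, 6 rose and none fell, while unadjusted p values under 0.05 numbered 7 upwards and 2 downwards, and the median log2 fold change was 0.19. Tek, Tie1, Eng and Emcn, which stem cells also express, lay between -0.15 and 0.08 on the log2 scale and did not pass. The list summed to 669 and 804 CPM in the WT libraries and 754 to 785 CPM in null. Flt1 and Cdh5 were nearly level over the null libraries, where Irf8, Ccr2 and Ly86 peaked in null library 1, so the libraries of Flt1 did not follow those of the monocyte and dendritic genes it was listed with. The part of endothelial transcripts in the Flt1 difference was not tested.

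**Figure D2:**
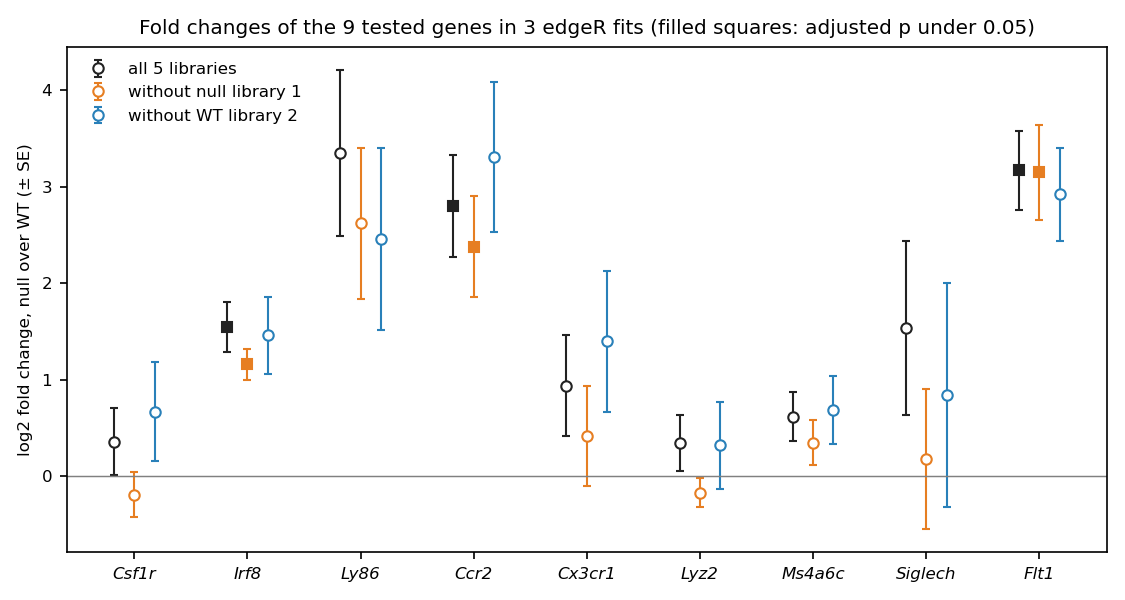
Log2 fold change of null over WT (vertical axis, bars are SE) for the 9 tested genes in edgeR fits of all 5 libraries (black), without null library 1 (orange) and without WT library 2 (blue), with filled squares where the adjusted p was under 0.05. Csf1r and Lyz2 fall to -0.19 and -0.17 without null library 1, while Flt1 moves from 3.17 to 3.15.

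Cd14 and Ly86, proteins of microbial sensing, rested on few counts. Cd14, on chromosome 18, a lipopolysaccharide co-receptor listed here as a monocyte marker, had 0 counts in both WT libraries and 2, 2 and 1 counts in null. The exact 95% Poisson intervals of the 0 counts reach up to 0.454 and 0.525 CPM in WT libraries 1 and 2, counting error only, so no difference was detectable at this depth. Ly86 (chromosome 13, 37345208 to 37419036), which encodes MD-1, the partner of the receptor Cd180 on B cells and myeloid cells, had 6 and 0 counts in WT and 56, 16 and 23 counts in null. Null library 1 had 7.46 CPM (exact 95% Poisson interval 5.64 to 9.69) and the other null libraries 2.11 and 2.84 CPM. All 3 values lay above both WT values, but the interval of null library 2, 1.21 to 3.43 CPM, overlapped that of WT library 1, 0.271 to 1.61 CPM. The log2 fold change was 3.35 ± 0.86 and did not pass (± standard error; adjusted p = 0.0711), while it passed in DESeq2 (adjusted p = 0.00465), with no filter on low counts (adjusted p = 1.24e-06), and without null library 2 or null library 3 (adjusted p = 0.0312 and 0.0481). Its highest adjusted p over the alternatives was 0.542, without WT library 2; without WT library 1 the only WT count left is 0. Cd180 was 57.8 and 40.0 CPM in the WT libraries and between 63.1 and 64.1 CPM in null (log2 fold change 0.37, standard error 0.15; adjusted p = 0.301).

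Of 12 tested partners of Cd14 and Ly86 in microbial sensing, 0 passed in any of edgeR, DESeq2 and limma-voom, and unadjusted p values under 0.05 numbered 2 upwards and 0 downwards. Their median log2 fold change was 0.02. Tlr4, the receptor that Cd14 loads with lipopolysaccharide, was 12.1 and 10.1 CPM in the WT libraries and 12.3, 9.37 and 8.88 CPM in the null ones, so that its groups overlapped.

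Lyz2 (chromosome 10, 117277331 to 117282321), the lysozyme of monocytes, macrophages and neutrophils, was the most abundant of the 10 genes per exon length. It was 65.7 and 63.2 CPM in the WT libraries and 132, 60.4 and 54.1 CPM in the null ones. Null library 1 was about double WT, while null libraries 2 and 3 were below both WT libraries. The log2 fold change was 0.35 ± 0.29 with all libraries (± standard error; adjusted p = 0.702) and -0.17 ± 0.15 without null library 1 (± standard error; adjusted p = 0.806, the range over alternatives being 0.174 to 0.967). Reads could be split between Lyz2 and its near-identical neighbour Lyz1, which had at most 2 counts in any library. Ms4a6c (chromosome 19, 11469366 to 11482192), a membrane protein of monocytes whose function is little known, was 13.8 and 15.1 CPM in the WT libraries and 30.0, 21.4 and 15.4 CPM in the null ones. The groups did not overlap, but null library 3 was barely above WT, and the log2 fold change of 0.62 ± 0.25 did not pass (± standard error; adjusted p = 0.308). BE692007 on the opposite strand covers 1088 of the 2050 exonic bases of Ms4a6c and had at most 8 counts in any library. Among the related genes, Ms4a6b was 22.5 and 27.2 CPM in the WT libraries and between 22.2 and 23.4 CPM in null. The 5 tested genes of the Ms4a family beside Ms4a6c had a median log2 fold change of 1.34, and 0.60 without null library 1.

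Siglech (chromosome 7, 55768178 to 55778925), the lectin that marks plasmacytoid dendritic cells, varied widely within both groups. It had 18 and 3 counts in WT and 67, 19 and 5 counts in null, which is 2.22 and 0.427 CPM against 8.93, 2.51 and 0.616 CPM. The exact 95% Poisson intervals of the WT libraries, 1.31 to 3.50 and 0.0881 to 1.25 CPM, did not overlap, and neither did those of null libraries 1 and 3, 6.92 to 11.3 and 0.200 to 1.44 CPM. Null library 3 was below WT library 1. The log2 fold change of 1.54 ± 0.90 did not pass (± standard error; adjusted p = 0.525), and it was 0.18 without null library 1. With no filter on low counts it passed (adjusted p = 0.0350), which lies at the low end of a range up to 0.970.

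Of 15 other tested genes of plasmacytoid dendritic cells, 3 rose and none fell. They were Spib, Ly6d and Tlr9, with log2 fold changes of 3.63 ± 0.32, 1.7 ± 0.25 and 1.29 ± 0.30 (± standard error; adjusted p = 0.000137, 0.00271 and 0.0400). All 3 are also used in the B lineage, whose 12 listed genes all rose, and the part of B lineage transcripts in these differences was not tested. Spib was 29.7, 16.6 and 27.9 CPM in null libraries 1, 2 and 3. The calls of Ly6d and Tlr9 were lost when either WT library was left out, and that of Tlr9 also in limma-voom and without null library 1. Unadjusted p values under 0.05 numbered 4 upwards and 1 downwards, the latter for Ccr9. It was 22.5 and 16.4 CPM in the WT libraries and 11.5, 10.2 and 14.4 CPM in the null ones. Its log2 fold change of -0.7 ± 0.21 did not pass (± standard error; adjusted p = 0.149). Klk1, a kallikrein of plasmacytoid cells, had 0 counts in every library. The list's median log2 fold change was 0.12, and -0.1 without null library 1. Of 15 tested genes of conventional dendritic cells, 0 passed in edgeR or limma-voom and 1 in DESeq2, while unadjusted p values under 0.05 numbered 4 upwards and 2 downwards, with a median of 0.20.

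Among 23 other tested genes of monocytes and macrophages, 4 rose and none fell (edgeR; DESeq2 3 higher, limma-voom 1). Fn1, fibronectin, was 8.49 and 7.12 CPM in the WT libraries and 90.1, 85.9 and 30.6 CPM in the null ones (log2 fold change 3.13, standard error 0.41; adjusted p = 0.00164), and it is also made by stroma, whose listed genes are given above; their part in the Fn1 difference was not tested. F13a1, a transglutaminase of monocyte progenitors and megakaryocytes, rose by 2.90 ± 0.55, Mpeg1, the pore-forming protein of phagocytes, by 1.80 ± 0.35, and the Fc receptor gene Fcgr3 by 1.83 ± 0.43 on the log2 scale (± standard error; adjusted p = 0.0148, 0.0172 and 0.0468). Fn1, F13a1, Mpeg1 and Fcgr3 each followed the order of Irf8 and Ccr2, highest in null library 1 and lowest of the null group in library 3. All 4 calls were lost when either WT library was left out, those of F13a1, Mpeg1 and Fcgr3 in limma-voom, that of Mpeg1 in DESeq2, and that of Fcgr3 without null library 1 or null library 2. Of the 35 genes listed, 12 were too low to be tested, among them the macrophage markers Adgre1 (F4/80) with 2 to 13 counts per library, Fcgr1 with 1 to 14, C1qa with 0 to 5 and Ms4a7 with at most 1. Other macrophage markers passed the filter. Cd68, a lysosomal protein, had 85 to 145 counts. The scavenger receptor gene Cd163 had 10 to 34, and its 1.42 CPM in WT library 2 lay close to the filter level of 1.28 CPM. Mrc1, the mannose receptor of tissue macrophages, had 14 counts in each WT library and 23, 49 and 30 in null (log2 fold change 1.24, standard error 0.45; adjusted p = 0.235). The part of macrophage transcripts in the levels of the set was not tested. The list's median log2 fold change was 0.60, and 0.32 without null library 1.

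**Figure D3:**
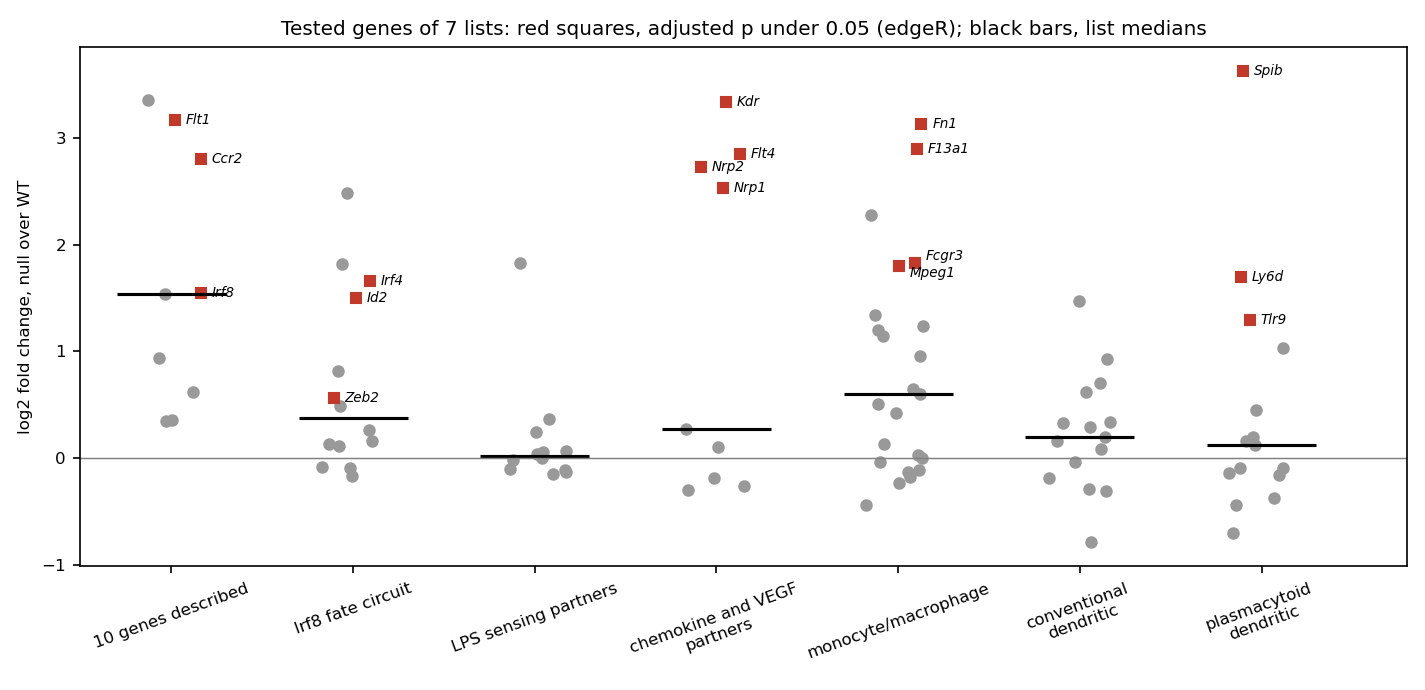
Log2 fold change of null over WT (vertical axis) for each tested gene of the set and of 6 related lists (horizontal axis), with red squares for genes at an adjusted p under 0.05 and black bars for list medians. The set's median is 1.54, and the medians of the 6 lists drawn beside it lie between 0.02 and 0.60.

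Across libraries, the genes of the set shared a peak. Null library 1 had the highest level for 8 of the 9 tested genes, all but Flt1, where 17.8% of tested genes were highest in that library. The ratio of null library 1 to the mean of null libraries 2 and 3 was 1.04 for Flt1, between 1.63 and 2.40 for Csf1r, Irf8, Ccr2, Cx3cr1, Lyz2 and Ms4a6c, 3.02 for Ly86 and 5.72 for Siglech. The null groups of 5 of the 9 lay wholly above WT (Irf8, Ly86, Ccr2, Ms4a6c and Flt1), against 15.5% of tested genes. Ly86, Ccr2 and Flt1 passed the filter on low counts only with the help of null libraries, which favours this pattern upwards. Relative to the WT mean, the median log2 level of the 9 genes was 2.10, 1.08 and 0.25 in null libraries 1, 2 and 3. The mature neutrophil list moved in the same order, with medians of 4.21, 2.16 and 0.05, while the B lineage list stood at 3.42, 2.43 and 3.22. Of the 8 tested neutrophil genes, 0 passed in any of edgeR, DESeq2 and limma-voom, and unadjusted p values under 0.05 numbered 7 upwards and 0 downwards. Without null library 1, edgeR called 3 of the 8 higher, and their median log2 fold change was 1.48, against 3.01 with all libraries. The part of neutrophil transcripts, and of the sex difference of null library 1, in the levels of the set was not tested.

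**Figure D4:**
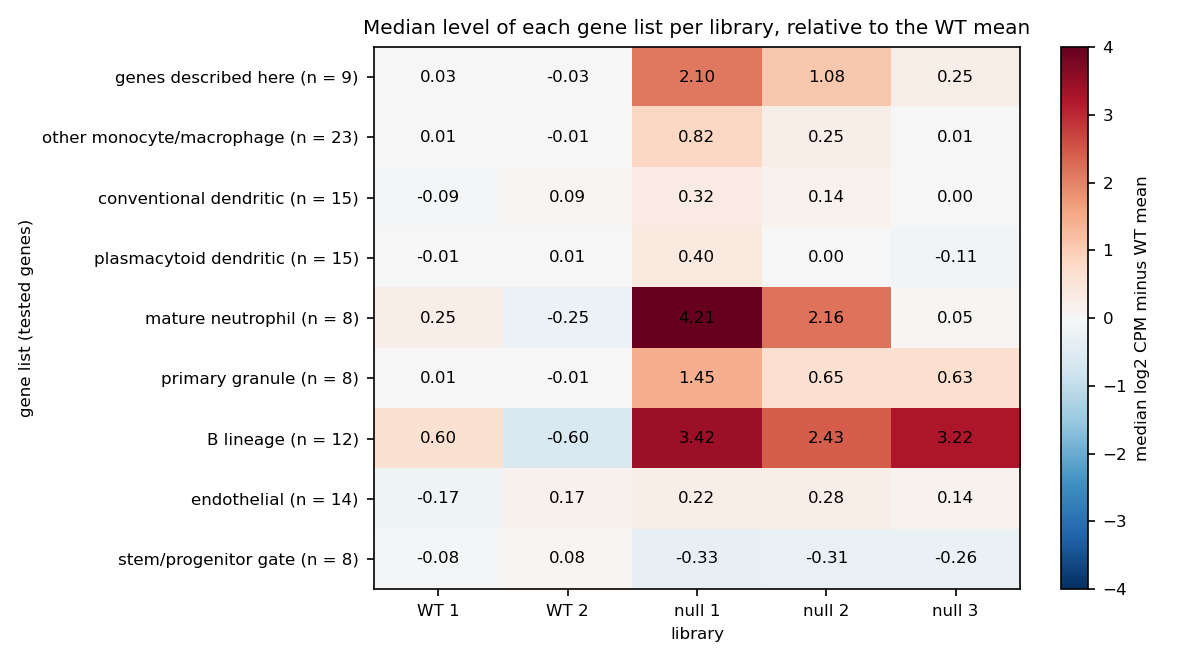
Median log2 CPM of the tested genes of each list (rows) in each library (columns), after subtracting the gene's WT mean, shown as colour and number. The tested genes of the set (top row) descend from 2.10 in null library 1 to 0.25 in null library 3.

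Per kilobase of exon, the WT order ran from Lyz2 at 49.0 CPM per kb through Ms4a6c (7.04), Irf8 (5.22) and Csf1r (3.12) to 6 genes below 0.5, of which Cd14 was at 0. Ms4a6c and Irf8 were closer to each other than to their neighbours, and in null Irf8 (15.3 CPM per kb) stood above Ms4a6c (10.9). In WT, the levels of Csf1r, 2.49 and 3.75 CPM per kb, lay below those of Irf8, 5.55 and 4.88. Cx3cr1, Siglech, Ccr2 and Ly86 had overlapping WT ranges with at least one neighbour in the order. In null, Ccr2, Ly86 and Siglech had means of 1.11, 1.14 and 1.19 CPM per kb and did not differ beyond their spread.

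**Figure D5:**
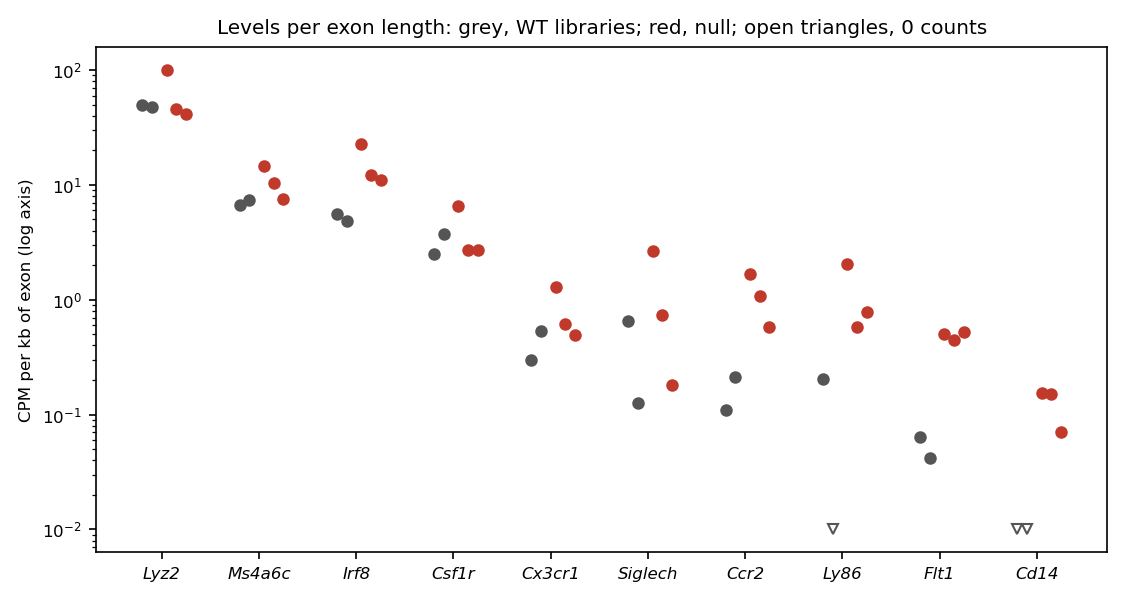
Level per exon length in CPM per kb (vertical log axis) for each gene (horizontal axis, ordered by WT mean), with grey points for WT and red points for null libraries and open triangles at the bottom for libraries with 0 counts. Lyz2 is the highest gene in every library and Cd14 the lowest or at 0.

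By root mean square distance between log2 CPM profiles centred on each gene's mean over the 5 libraries, the genes most like Irf8 were Atp1b2, Cd74 and Aqp1, at distances of 0.10, 0.11 and 0.13. Cd74, the invariant chain of MHC class II, was 31.9 and 25.3 CPM in the WT libraries and 128, 71.7 and 52.4 CPM in the null ones. The nearest to Csf1r were Zfyve21, Rell2 and Ifit1, at 0.14, 0.15 and 0.17. Siglech had no close match among the genes compared. Its nearest were the oxidase subunit Cybb, the neutrophil gene S100a9 and the histidine decarboxylase gene Hdc, at 0.49, 0.66 and 0.69. Siglech itself had 3 to 67 counts per library, and only genes of mean CPM of at least 5 were compared. Its distances therefore cannot separate a distinct profile from counting noise. S100a9 was 45.5 and 28.2 CPM in the WT libraries and 631, 167 and 40.3 CPM in the null ones. These distances were taken over 10293 genes and 5 libraries and describe likeness of level only.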

How the data were processed

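RNA of 2 WT and 3 Gabbr1 null LSK libraries was sequenced as paired reads of 50 bases from 3.6 to 5 ng of RNA after probe-based depletion of ribosomal RNA in a low-input library kit, per the labels' protocols, while the molecule field says polyA RNA. The protocol text gives more animals per genotype than there are libraries here. The authors deposited raw counts per gene. STAR, featureCounts and mm10 are named in the submitters' processing notes, with no version; annotation release, strand setting and handling of multi-mapped reads were not given in these sources. No label says that libraries of a group come from separate animals.

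Symbols, positions and exon lengths came from GENCODE M21 on mm10 (99.5% of identifiers matched, versions ignored), and upstream sequences from RefSeq (GRCm38.p6). filterByExpr by group kept 13467 genes, which needs 10 counts at the median total (1.28 CPM) in 2 libraries. After TMM scaling, glmQLFit and glmQLFTest of edgeR 4.0.16 (R 4.3.3) were run on genotype alone, which leaves 3 residual degrees of freedom, at a Benjamini-Hochberg adjusted p under 0.05. SEs derive from the F statistic. 1 CPM stood for 7.02 to 8.13 counts, and 95% Poisson intervals cover counting error only. log2 CPM used a prior count of 2. Alternatives were RLE and upper quartile factors, 2 other filters, DESeq2 1.42.0, limma-voom (limma 3.58.1) and each library left out; with 1 WT library left, its spread is assumed equal to that of the null group. The genes and lists were chosen with earlier results of these data known. The text names a selection of the 10 genes, Gabbr1 and Kit, list genes past the threshold (at most 6 a list) and the 2 most abundant, and the 3 nearest profiles of Csf1r, Irf8 and Siglech (mean CPM of at least 5, no predicted genes); other genes named for their role, for low counts or beside a member were chosen after their values were seen. On simulated counts for null over WT (13212 genes), the test recovered 22.4% of 1.5-fold, 62.1% of 2-fold and 92.2% of 4-fold changes, and 14 of 129 calls were false. Libraries of a group differed beyond sampling noise in every pair (chi-square per degree of freedom 7.61 to 12.0). The labels give no replicate numbers; the library numbers used here follow sample order and pair nothing. Results of some listed genes are not reported here.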

Additional observations from a re-analysis of the deposited data

How the results depend on the processing

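RLE factors, upper quartile factors, DESeq2 and limma-voom kept the counts of genes called higher and lower, and of genes of the set called higher, within 1.5 times. With no filter on low counts, 602 genes were higher and 155 lower, and 5 genes of the set were higher (Irf8, Ccr2, Flt1, Ly86 and Siglech). With CPM of at least 1 in every library, 173 genes were higher, and of the 5 genes of the set that this filter kept 1 was higher, Irf8. Leaving out each library in turn gave 32 to 316 genes higher and 0 to 51 lower, and 0 to 4 genes of the set higher. The fewest came without WT library 2, where edgeR called 0 genes lower and 339 had an unadjusted p under 0.05 in that direction; the number was 15 without null library 3. Csf1r ranged from -0.19 to 0.67 and Lyz2 from -0.17 to 0.58 on the log2 scale when a library was left out, both negative only without null library 1. The other 7 tested genes of the set were positive in every alternative that tested them. Of 37 other called genes of the lists, 11 kept their call in every alternative that tested them, 26 lost it without WT library 2 and 19 without WT library 1, and none turned direction. The causes were not tested. Cd14 lies under the filter, and at 7 to 8 counts per CPM the levels of Ly86, Ccr2, Flt1 and Siglech in WT rest on 0 to 18 counts per library. No paired analysis was possible because the labels give the libraries no replicate numbers, and the numbers used here only follow sample order.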

Other observations

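Osteoclasts, which descend from monocyte progenitors and need Csf1r, were also looked for. Of 9 listed genes 4 were tested, and 0 passed in edgeR or limma-voom and 1 in DESeq2, while unadjusted p values under 0.05 numbered 2 upwards and 0 downwards. The defining genes Ocstamp and Atp6v0d2 had at most 1 count in any library. Of the 14 other genes of the Ms4a family, 6 had 0 counts in every library. Ms4a1, the B cell surface protein CD20, rose among the 5 tested (log2 fold change 4.51, standard error 0.56; edgeR, adjusted p = 0.00109), and this did not hold when either WT library was left out. Its libraries were 0.369 and 0.285 CPM for WT against 10.8, 8.05 and 4.81 CPM for null.

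Priming and mature-lineage genes outside the monocyte branch also differed. Of 8 tested granule genes of granulocyte and monocyte progenitors, 2 rose and none fell. Elane, neutrophil elastase, was 8.74 and 6.27 CPM for WT against 86.6, 34.0 and 24.4 CPM for null, and Ctsg, cathepsin G, was 9.11 and 7.55 CPM against 33.3, 22.2 and 23.5 CPM (log2 fold changes 2.67 with standard error 0.48 and 1.65 with standard error 0.23; edgeR, adjusted p = 0.0102 and 0.00204). Elane was highest in null library 1, as 8 of the 9 tested genes of the set were. Both granule calls were lost when either WT library was left out, that of Elane also in limma-voom. Pf4 of megakaryocytes and Cpa3 of mast cells rose in edgeR, alone among the 5 and 4 genes tested in their lists (DESeq2 called 3 and 1 higher, limma-voom 0 and 1, and edgeR without null library 1 called 1 and 2), and lost the call without WT library 2, Pf4 also without WT library 1, without null library 3 and in limma-voom. Of 2 tested erythroid and 4 tested T and NK cell genes 0 passed in any of edgeR, DESeq2 and limma-voom, and 1 of each list had an unadjusted p under 0.05, in the upward direction.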
